A study of Apis mellifera with 9 samples.

Results

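The honey bee miRNAs miR-9a, miR-9b, miR-9c, miR-79 and miR-306 were followed in the ovaries of worker honey bees (Apis mellifera). They were taken by name from the deposited sheet of known miRNAs, with miR-9 followed by the letter a, b or c, plus miR-79 and miR-306, which gave 5 of 152 known miRNAs. All but miR-9b were read in all 3 libraries, whereas miR-9b had 2 reads in 1 library, so the values below are mainly those of 4 members. The study catalogued messenger, long non-coding, circular and small RNAs of worker ovaries in 3 pools, and every pool combined 40 pairs of ovaries from the workers of one of 5 colonies headed by sister queens. The workers had emerged in an incubator at 34 °C and 80% humidity and returned to their colony until collection 4 days later. Each pool number has 1 small RNA library, 1 RNA-seq library and 1 RNase R circRNA library, and the labels give 1 group (workers, ovaries) with no treatment or other caste, so levels were compared between members, between pools and with the other known miRNAs.

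A miRNA is cut from a hairpin precursor, first by the Drosha and Pasha complex in the nucleus and then by Dicer-1 in the cytoplasm, and the mature strand guides Argonaute-1 to messenger RNAs, mostly through its seed near the 5′ end. miR-9 is among the oldest animal miRNAs, and in Drosophila miR-9a protects sensory organ and wing development by limiting the zinc finger factor senseless and the LIM-only protein Beadex. In Drosophila miR-79 was matched early to the Brd box, a short motif in the 3′ ends of Notch pathway targets, and its hairpin lies with those of miR-9c, miR-306 and miR-9b in an intron of grapes, the gene of the checkpoint kinase Chk1. The deposited sheet of known miRNAs gives positions and not sequences, so no mature sequence is printed here and members were not grouped by seed.

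The 5 hairpins lay at 3 places of the genome, with miR-306, miR-79 and miR-9b together inside the bee gene named grp, and miR-9c and miR-9a elsewhere. The precursor of miR-9a spans positions 21811027 to 21811113 of linkage group 1 on the minus strand, and its mature strand (23 bases) sits in the 5′ arm of the hairpin. The precursor of miR-306 spans 7887398 to 7887524 of linkage group 15 on the plus strand, with the mature strand (22 bases) in the 5′ arm. The precursor of miR-79 follows it after 97 bases, at 7887622 to 7887721 on the same strand, with the mature strand (21 bases) in the 3′ arm. Both lie inside LOC413964, whose product name in the table is serine/threonine-protein kinase grp, on the strand of that gene (7885515 to 7888690). The precursor of miR-9c, on the minus strand at 1395236 to 1395374, is on the same linkage group but 6.49 megabases away, and its mature strand (21 bases) is in the 3′ arm. Arms were assigned by the side of the precursor midpoint on which the mature strand lies, without a sequence or fold. For miR-9c the mature strand covers bases 79 to 99 of 139, which begins near the midpoint. Whether a hairpin is in an exon or an intron is not stated in the tables used, and no source used here names the genome build of these positions.

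The miR-9b hairpin is listed on the opposite strand of the miR-79 hairpin. It spans 7887633 to 7887724 on the minus strand, where it shares 89 bases with the miR-79 precursor, and the listed mature strands overlap by 20 bases in opposite directions. The plus strand gave 1422, 2281 and 2237 reads as miR-79 in pools 1, 2 and 3. The minus strand gave 0, 2 and 0 reads as miR-9b, and a count of 0 allows a share of up to 6.29e-05% of listed reads in pool 1 and 4.49e-05% in pool 3. Nearly all reads assigned to this place were thus on the plus strand, the strand of grp. How reads that match several miRNAs were assigned is not stated, so reads of miR-9b counted under another miR-9 would not be seen here. In the sheet 5 pairs of known miRNAs have precursors on opposite strands of one place. In 1 other pair the mature strands also overlap, by 21 bases, and there both sides were read, miR-6000a-5p with 32, 80 and 90 reads and miR-6000b with 78, 146 and 113.

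**Figure D1:**
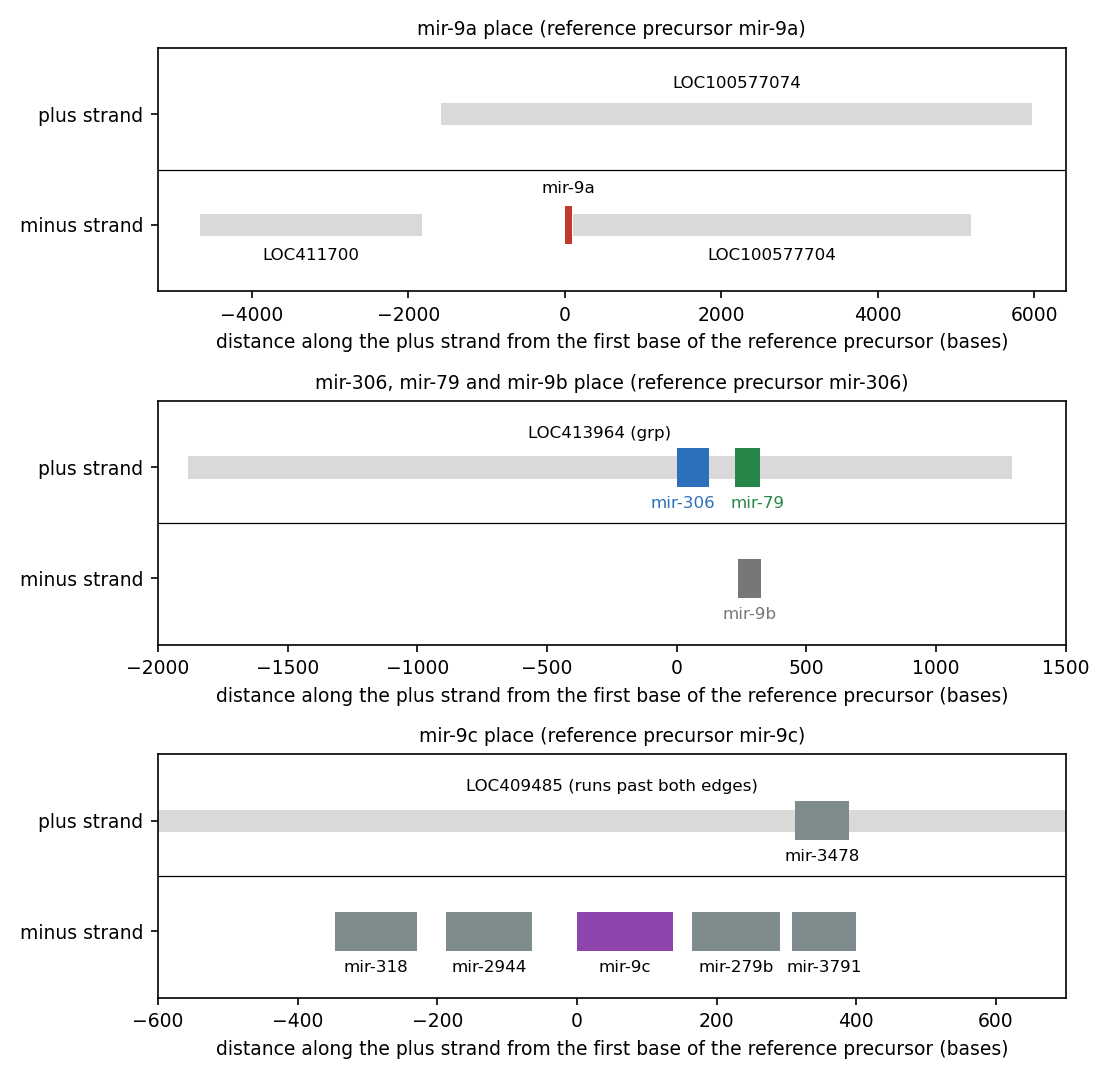
Maps of the 3 places that hold the hairpins, drawn to scale as the distance in bases from the first base of a reference precursor, with the plus strand above and the minus strand below the line. Coloured boxes are precursors of members, dark grey boxes other known miRNAs and light grey bars genes of the RNA-seq table; mir-79 and mir-9b occupy the same place on opposite strands, and mir-9c stands in a row of hairpins opposite LOC409485.

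The 4 members that were read in every pool stood at different levels, with miR-9a exceeding miR-9c by 183 times (geometric mean of 3 pools). The libraries held 4772099, 7277025 and 6682028 listed miRNA reads in pools 1, 2 and 3. In such bulk samples fewer cells of a type and less RNA per cell cannot be told apart. ame-miR-9a had 76440, 89135 and 103371 reads in pools 1, 2 and 3, which are 1.60%, 1.22% and 1.55% of the listed miRNA reads. With a mean of 1.46% ± 0.204 (SD, n = 3) it ranked 7 of 152 known miRNAs. ame-miR-306 had 34371, 56786 and 65511 reads, or 0.720%, 0.780% and 0.980%, with a mean of 0.827% ± 0.136 (n = 3) and rank 16. Its reads were highest in pool 3. ame-miR-79 stood at 0.0298%, 0.0313% and 0.0335% by pool, with a mean of 0.0315% ± 0.00185 (n = 3) and rank 48. ame-miR-9c was the lowest of the 4, with 272, 686 and 615 reads, or 0.00570%, 0.00943% and 0.00920%, a mean of 0.00811% ± 0.00209 (n = 3) and rank 60. The ranges of the 4 members over pools did not overlap.

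Together the 5 miRNAs took 2.36%, 2.05% and 2.57% of listed reads in pools 1, 2 and 3. Of their summed reads, miR-9a held 62.7% ± 4.57 and miR-306 35.6% ± 4.38 (n = 3), while miR-79 held 1.37% ± 0.145 and miR-9c 0.354% ± 0.110. The 95% Wilson interval of a share was narrow for miR-9a (1.59% to 1.61% in pool 1) and wider in relative terms for miR-9c (0.00506% to 0.00642% in pool 1). It was widest for the 2 reads of miR-9b in pool 2 (7.54e-06% to 0.0001%). These intervals cover counting error within a library only. The reads carry no molecular identifiers, so copies made by amplification are counted as reads and the intervals may be too narrow. A ratio between miRNAs is a ratio of reads, which also depends on how well each small RNA is ligated.

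**Figure D2:**
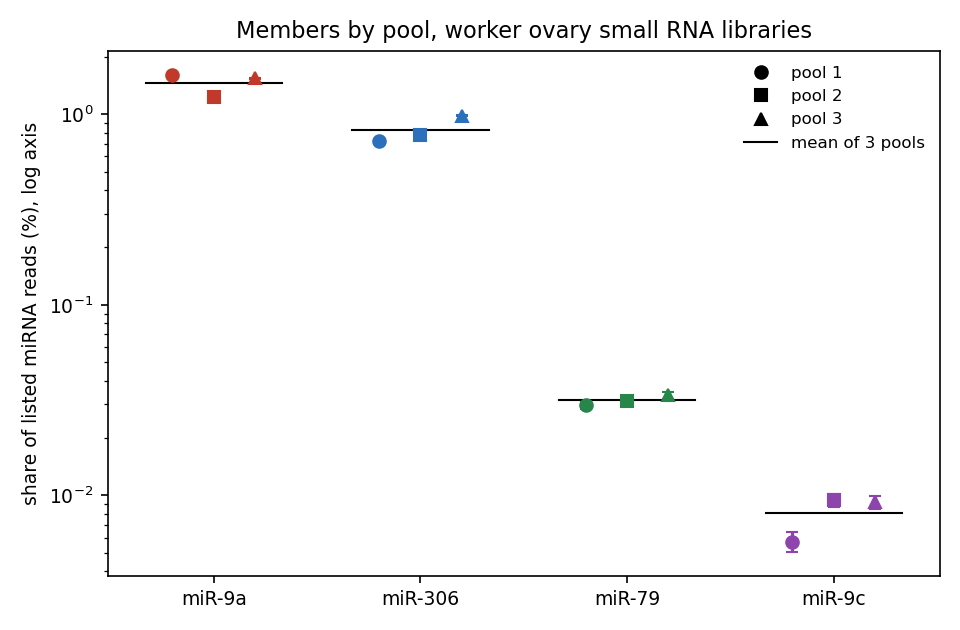
Share of listed miRNA reads in percent (log axis) for 4 members, with a point per pool, 95% Wilson intervals as error bars (mostly smaller than the points) and the mean of 3 pools as a line. The members keep the order miR-9a, miR-306, miR-79, miR-9c in each pool, and the low point of miR-9c is pool 1 at 0.00570%.

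The known miRNAs just above and just below each member in the order of mean share give a scale for its level. miR-9a lay between miR-10 (1.81% ± 0.579) and miR-275 (1.40% ± 0.366), a miRNA clustered with miR-305 in insects, and miR-10 was above it in 2 of 3 pools. miR-306 lay between miR-31a (0.907% ± 0.512) and the muscle miRNA miR-133 (0.814% ± 0.568), both of which varied far more between pools than miR-306 did. miR-79 lay between miR-3715 (0.0344% ± 0.0109) and miR-2796 (0.0274% ± 0.00846). miR-9c lay between miR-193 (0.00845% ± 0.00301) and miR-3049-3p (0.00715% ± 0.000944). In all 8 cases the difference of the means was smaller than the larger of the SDs (n = 3). Neighbours in rank were picked for their close means, and the larger SD was mostly that of the neighbour. The comparison is therefore no test of the order.

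**Figure D3:**
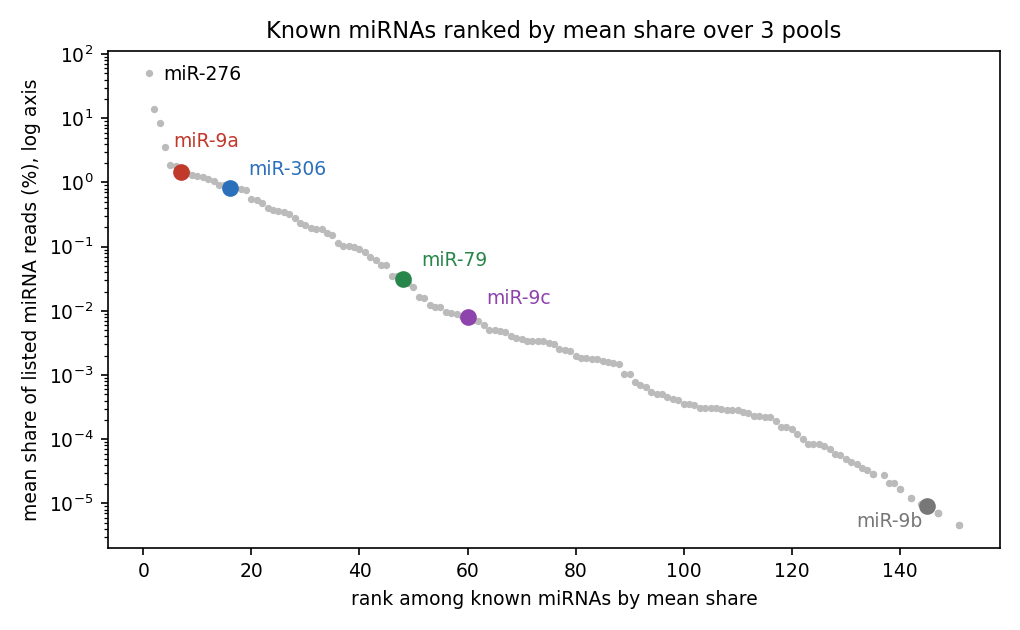
Mean share of listed miRNA reads over 3 pools (percent, log axis) against rank for known miRNAs with at least 1 read, in grey, with the 5 members in colour. miR-9a (rank 7) and miR-306 (rank 16) are on the upper part of the curve below miR-276, miR-79 (rank 48) and miR-9c (rank 60) in the middle, and miR-9b (rank 145) near its end.

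The hairpins of miR-306 and miR-79 are 97 bases apart inside grp, and their mature reads differed 26.0-fold. The ratio of miR-306 to miR-79 was 24.2, 24.9 and 29.3 in pools 1, 2 and 3, a log2 ratio of 4.70 ± 0.15 (n = 3). That spread was smaller than for most pairs of miRNAs: of 3486 pairs among known miRNAs with a mean of 100 reads or more, 6.02% had a smaller SD of the log2 ratio, and the median SD was 0.53. miR-9a exceeded miR-306 by 2.22, 1.57 and 1.58 times, a log2 ratio of 0.82 ± 0.29 that was positive in 3 of 3 pools. The 2 miR-9 forms were further apart and less constant, with 281, 130 and 168 reads of miR-9a for each read of miR-9c and a log2 ratio of 7.52 ± 0.57, close to the median spread of all pairs. The log2 ratios of miR-9a to miR-79 (5.52 ± 0.23), of miR-306 to miR-9c (6.70 ± 0.31) and of miR-79 to miR-9c (1.99 ± 0.35) were also positive in 3 of 3 pools. Over the 6 pairs the exact two-sided sign-flip permutation test gave p = 0.25 each, which is the smallest that 3 pools allow.

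On listed reads the 4 members differed by less than 2-fold between pools. The highest share was 1.31 times the lowest for miR-9a, 1.36 times for miR-306, 1.12 times for miR-79 and 1.65 times for miR-9c. A 2-fold difference was reached by 0 of these 4, against 23 of the 84 known miRNAs with a mean of 100 reads or more (27.4%), a count that fell to 3 of 84 without pool 1. With miR-276 left out of the totals, miR-9c passed that fold, at 2.11 times. The SD of the log2 share was 0.08 for miR-79 (rank 3 of 84 from the smallest, though rank 31 by edgeR's biological coefficient of variation), 0.21 for miR-9a (rank 18 from the smallest) and 0.23 for miR-306 (rank 22). For miR-9c it was 0.41 (rank 49), above the median of 0.37.

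Those differences were nevertheless larger than counting error at this depth. A chi-square test of equal shares over the 3 libraries, with Benjamini-Hochberg adjustment over the 121 known miRNAs tested, called all 4 members, and it called 72.7% of all tested. For miR-9a and miR-306 the chi-square was 3801 and 2723 on 2 degrees of freedom, with adjusted p-values too small to be written as other than zero. For miR-9c the adjusted p was 1.51e-12 (chi-square 55.7), and for miR-79 it was 0.00308 (chi-square 12.4). The call of miR-9c rested on pool 1, without which the adjusted p was 0.725 (from 2.83e-16 over its other settings). The call of miR-79 was lost without pool 3, at an adjusted p of 0.176. Over its other settings the adjusted p ran from 2.44e-08 to 0.0488, the last without pool 1 and just under 0.05. With 1 library per pool, the test compares libraries and not colonies.

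miR-9c and miR-306 had their lowest share in pool 1, and this held under each of 6 ways of scaling the libraries. For miR-9c pool 2 was highest under each of the 6, and the gap between the highest and the lowest pool ran from 1.65 to 2.11 times. For miR-306 the gap ran from 1.18 to 1.55 times. The order of pools for miR-9a and miR-79 depended on the scaling: miR-9a was lowest in pool 2 on listed reads and in pool 3 with TMM, which scales to a trimmed mean of all miRNAs, and miR-79 was lowest in pool 1 on listed reads and in pool 3 with TMM. miR-276, the most abundant miRNA, took 43.9%, 56.0% and 50.5% of listed reads. With it left out, miR-9a stood at 2.85%, 2.79% and 3.12%, still lowest in pool 2 but highest in pool 3 in place of pool 1. Leaving it out moved the median known miRNA in pool 1 from -0.09 to -0.35 on the log2 scale against the mean of the other pools. On listed reads 3 of 4 members were lowest in pool 1, beside 41.7% of the 84 known miRNAs.

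The hairpin of miR-9c stands in a row of 5 on the minus strand, with miR-318, miR-2944, miR-279b and miR-3791 within 228 bases on either side, and a sixth, miR-3478, lies opposite miR-3791. Nearest to it, 26 bases away, is miR-279b of the miR-279 family, with 6670, 15934 and 13486 reads in pools 1, 2 and 3. The number of miR-279b reads per miR-9c read was 24.5, 23.2 and 21.9, with an SD of the log2 ratio of 0.08, and 2.01% of all pairs had a smaller SD. That percentage was 5.36% for miR-3791, 9.50% for miR-3478, 28.4% for miR-2944 and 34.1% for miR-318, so the closeness to miR-9c differed within the row. miR-3791 had 5956, 16316 and 16358 reads, which are 21.9, 23.8 and 26.6 per miR-9c read. miR-2944 had 15.2, 10.7 and 9.61 reads per miR-9c read, and miR-318, a miRNA of the ovary in flies, had 71, 281 and 261 reads and 0.261, 0.410 and 0.424 per miR-9c read. All 6 miRNAs of this place had their lowest share in pool 1 on listed reads, beside 41.7% of the 84 known miRNAs with a mean of 100 reads or more. Their lowest share was from 1.16 times below the highest pool for miR-2944 to 2.63 times for miR-318. For miR-2944 pool 1 was lowest under 4 of 6 scalings and for the other 5 under 6 of 6. Over these scalings from 40.5% to 53.6% of the 84 known miRNAs were lowest in pool 1. Within one row of hairpins the mean share ranged from 0.00309% ± 0.00138 for miR-318 to 0.198% ± 0.0642 for miR-3791 (n = 3), and miR-9c was the second lowest of the 5 on its strand.

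**Figure D4:**
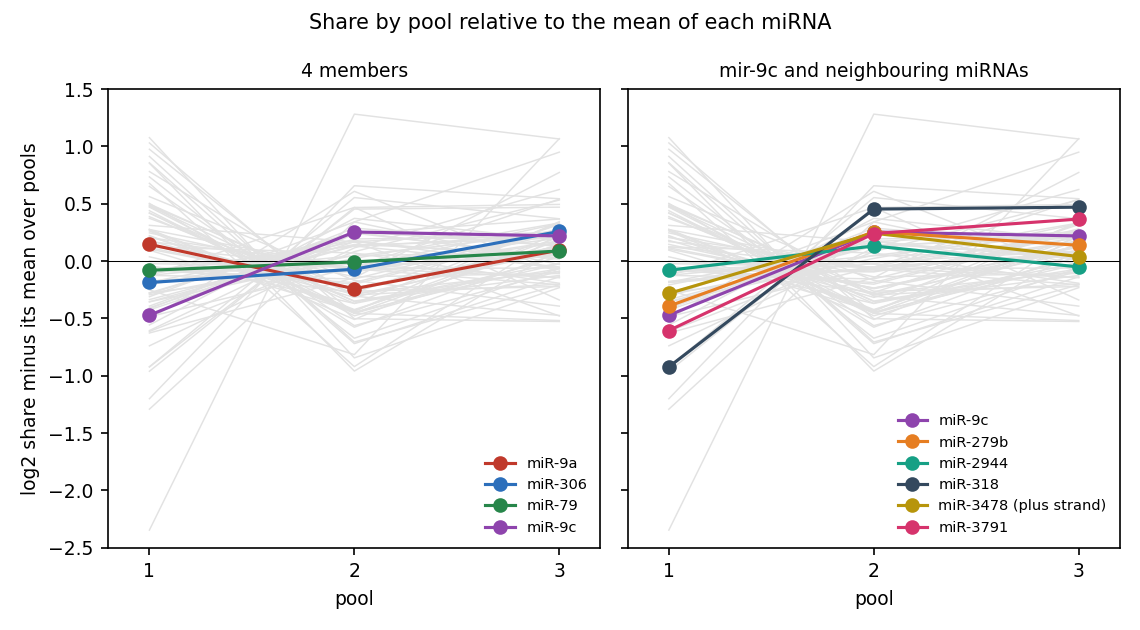
log2 share of each miRNA minus its own mean over the 3 pools, for 4 members (left) and for miR-9c with the miRNAs next to it (right), over grey lines for the known miRNAs with a mean of 100 reads or more. Lines join the values of one miRNA and imply no order of pools. miR-9c is lowest in pool 1, where its share is 0.00570%, and miR-279b and miR-3791 follow it closely.

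The known miRNAs whose pattern over pools was most like that of a member were found by the Euclidean distance of the centred log2 shares, over 3 libraries and 83 other miRNAs. Nearest to miR-9a were miR-993 (0.04), miR-iab-4 (0.06) and miR-6005-3p (0.09), against a median distance of 0.52. Nearest to miR-306 were miR-279a (0.02), miR-3049-3p (0.08) and miR-3785 (0.11), with a median of 0.55. Nearest to miR-79 were bantam (0.07), miR-252a (0.07) and miR-92a (0.10), with a median of 0.53, and nearest to miR-9c were miR-317 (0.09), miR-3727 (0.10) and miR-6043 (0.11), with a median of 0.75. The 3 nearest to miR-9c are not among the miRNAs next to it on the genome. With 3 points per miRNA these distances are a description of these libraries.

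In the RNA-seq libraries, from 26602582 to 31930244 fragments, the genes at the hairpins were read in all 3 pools. The libraries of one pool number are matched by their titles, which do not say that they share RNA. grp (LOC413964), which spans the miR-306 and miR-79 hairpins, stood at 29.05, 26.4 and 28.6 FPKM in pools 1, 2 and 3, or 28.01 ± 1.39 (n = 3). On listed reads miR-306 and miR-79 were lowest in pool 1, and with TMM miR-79 was lowest in pool 3. Whether the miRNAs vary with the genes at their hairpins was not tested, since FPKM and miRNA shares come from different libraries and scales. No deposited circRNA junction spanned any of the 5 precursors, and 0 junctions lay within grp. How often other precursors or genes hold a junction is not given here, so these zeros are not set against a background. The miR-9c row lies within the span of LOC409485, cytoplasmic aconitate hydratase-like, an enzyme of citrate metabolism encoded on the opposite strand, at 50.8, 44.2 and 47.3 FPKM. The miR-9a hairpin lies 21 bases beyond the end of LOC100577704, a lncRNA gene on the same strand, which stood at 6.62, 5.79 and 7.29 FPKM. On the opposite strand the lncRNA gene LOC100577074 spans the hairpin in the table, at 1.17, 3.29 and 1.56 FPKM, whereas in the RefSeq assembly Amel_HAv3.1 it does not. Within the spans of LOC100577704 and LOC100577074 lay 1 circRNA junction, the same for both. The nearest coding gene to miR-9a is the heat shock protein 83-like LOC411700, at 37.0, 99.9 and 80.0 FPKM. The strand rule of the counting is not stated, so the levels of LOC100577704 and LOC100577074, which overlap on opposite strands, are uncertain. The miR-9a hairpin itself, listed among 170 miRNA genes of that table, held 0, 0 and 2 fragments.

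Transcripts for the proteins that make and use miRNAs were read in all 3 pools, and no protein was measured. All 7 entries of the machinery list were matched and had a mean FPKM of 1 or more, as did 83.7% of the 10271 protein-coding genes, and their median log2(FPKM + 1) was 4.06 ± 0.04 against 3.97 ± 0.07 for all coding genes. Here ± is the SD of the median over the 3 pools and not the spread between genes. Drosha (LOC410968) stood at 16.7 ± 1.56 FPKM and its partner Pasha (LOC414009) at 6.22, 8.46 and 10.6 by pool. The precursor exporter Exportin-5 (LOC413344) stood at 11.4 ± 0.680, Dicer-1 (Dcr-1) at 11.7 ± 0.449 and the RISC-loading complex subunit LOC725512, entered as loquacious, at 17.9 ± 3.64. Argonaute-1 (LOC552062, named argonaute 1 in its transcript name and argonaute-2 in its product name) stood at 54.4 ± 6.55. Gawky (LOC411646), the GW182 protein that carries out silencing, was the highest of the list at 112 ± 26.1, with 85.2, 137 and 113 FPKM by pool.

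A list of 7 fly genes considered as possible targets was looked up in the bee table, and 4 were matched by product name. Senseless, the short neuropeptide F receptor and RNF146 were not matched, so nothing is given for them. Each of the 4 had a mean FPKM of 1 or more, as did 83.7% of the 10271 protein-coding genes. LOC413125, entered as Beadex, stood at 3.49, 3.28 and 4.06 FPKM, the lowest of the 4. Its product name is LIM domain transcription factor LMO4.2-like, and whether it is the bee homologue of Beadex was not tested. The engulfment receptor draper (LOC552479) stood at 149, 95.2 and 108, the dual specificity phosphatase LOC408844, entered as puckered, at 152, 222 and 211, and the growth factor receptor LOC413303, entered as PVR, at 130, 167 and 142. The median log2(FPKM + 1) of the 4 was 7.03 ± 0.09, beside 3.97 ± 0.07 for all coding genes, where ± is the SD of the median over pools. The spread between the 4 genes was wide, with means from 3.61 to 195 FPKM. This median covers only the 4 matched entries of the list of 7. Whether any of them is a target of these miRNAs in the bee was not measured.

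**Figure D5:**
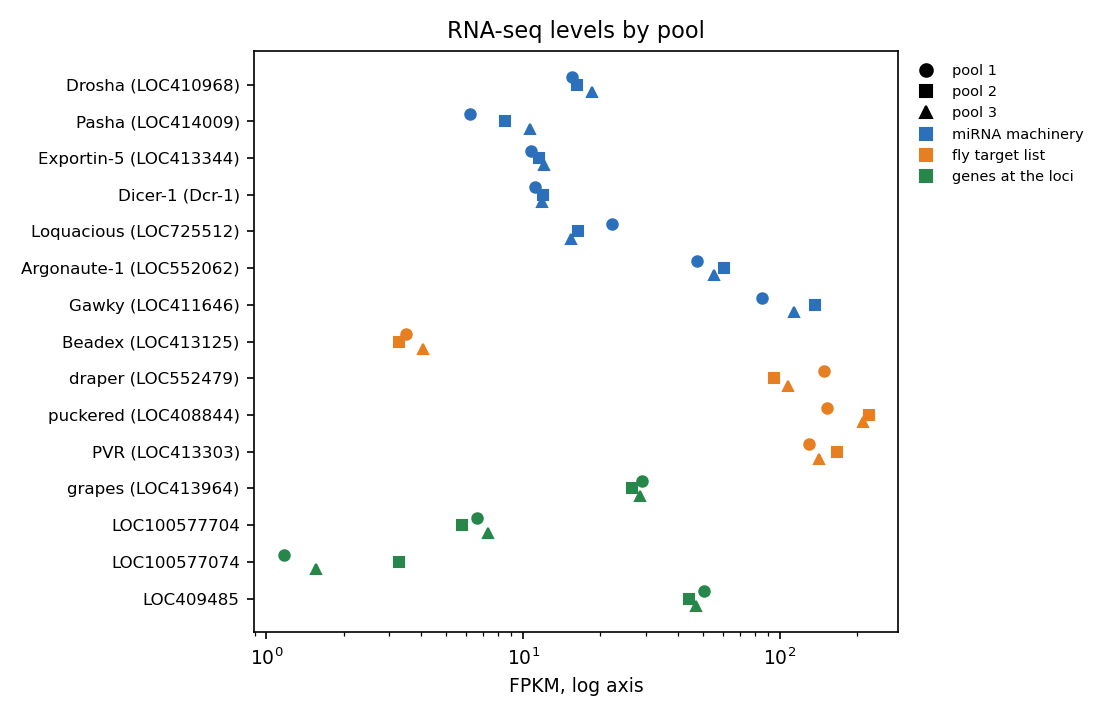
FPKM (log axis) of the miRNA machinery, the matched genes of the fly target list and the genes at the hairpins, with a point per pool in the RNA-seq libraries. grp stays between 26.4 and 29.05 FPKM, Gawky is the highest of the machinery genes and the LMO4.2-like gene entered as Beadex the lowest of the target list.

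The tissue label was checked on marker genes in the RNA-seq libraries. The 4 germ line markers (vas, nanos, aub and a tudor domain gene) had mean levels from 9.24 to 67.8 FPKM and the follicle cell marker fasciclin-3 204 ± 57.6. Markers of other tissues were also present, with 3 of 3 muscle markers at means from 68.6 to 266 FPKM, 3 of 3 fat body markers at 35.7 to 645 and 3 of 3 neuronal markers at 2.67 to 24.9. Counting also 2 gut markers, 7 of 11 markers of other tissues were highest in pool 1, namely 2 of 2 of gut, 3 of 3 of muscle, 1 of 3 of fat body and 1 of 3 of neurons. The share of all coding genes that were highest in pool 1 is not given here. The count of 7 therefore cannot be told from a general tilt of that library. The gut markers differed most, with trypsin-7 at 22.1, 0.0412 and 0.515 FPKM and chymotrypsin-1 at 51.8, 0.0401 and 0.418. The summed muscle markers were 769, 516 and 431 FPKM by pool and the fat body marker Hex70a 199.9, 80.0 and 70.1, while the summed fat body markers were lowest in pool 1 at 708, against 861 and 823. Neuronal markers summed to 43.0, 42.2 and 36.5 FPKM. The germ line markers summed to 116, 135 and 141 and the follicle marker was at 154, 267 and 191, both lowest in pool 1. Pool 1, with the most gut and muscle marker RNA, was also the pool in which miR-9c and miR-306 had their lowest shares, and the part of other tissues in those shares was not tested. The muscle miRNAs miR-1 (0.0537%, 0.0203% and 0.0310%) and miR-133 (0.585%, 0.396% and 1.46%) were lowest in pool 2.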

How the data were processed

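Small RNA libraries were made with a NEBNext small RNA kit, per the labels' protocols. The authors deposited raw read counts and RPM values (reads scaled to a library total) for 152 known and 12 newly predicted miRNAs, FPKM per gene for RNA-seq of rRNA-depleted RNA, and a normalised signal (SRPBM) per circRNA junction, used here for junction positions only. Bowtie, Bowtie2 2.0.6, TopHat2 2.0.9 and HTSeq 0.6.1 are named without a role, per the submitters' processing notes; trimming, mismatches and the genome build are not given in the sources used here. How reads that match several miRNAs were assigned is not stated either.

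Shares were taken over the listed reads (4772099, 7277025 and 6682028 in pools 1 to 3), which are 77.8%, 89.7% and 88.6% of the totals implied by the RPM values. Counts were compared with chi-square tests where each expected count was at least 5 (adjusted p under 0.05). The test was tried on simulated counts that varied by counting error only. That trial does not cover spread between libraries beyond counting error. TMM (edgeR 4.0.16) and size factors (DESeq2 1.42.0) served as alternatives, with R 4.3.3, Python 3.11.15 and scipy 1.17.1. Fragment totals of RNA-seq were recovered from FPKM times length of the miRNA genes, which fell on whole steps (within 1e-06). RefSeq Amel_HAv3.1 was used for neighbours only. Named items were the members, their neighbours in rank and on the genome, the 3 most alike miRNAs of each, and all matched list entries; seed sharing could not be applied without sequences. A second feature with the symbol aub, with a transposase product, was left out. The members and lists were chosen with earlier results of these data known. Nothing says whether the pools differ by more than their colony, so spreads are those between these libraries.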

Additional observations from a re-analysis of the deposited data

How the results depend on the processing

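Of 111 alternative values, 101 kept their direction and their side of the threshold or stayed within the spread between pools. Some settings could hardly move a value, such as leaving out the newly predicted miRNAs or adding 0.5 read before a ratio. The count of 101 is therefore no measure of robustness. Taken over the authors' RPM totals, the mean share of miR-9a was 1.24% and that of miR-79 0.0270%. Without miR-276 the means were 2.92% for miR-9a, 1.68% for miR-306, 0.0640% for miR-79 and 0.0167% for miR-9c, since that miRNA held 50.1% of listed reads on average. The number of known miRNAs that differed 2-fold between pools was 64 with no filter on reads, and it ran from 3 (without pool 1) to 18 (without pool 3) when a pool was left out. The chi-square adjusted p was 0.725 for miR-9c without pool 1 and 0.176 for miR-79 without pool 3. Depth limits miR-9b, at 0 to 2 reads, and miR-9c in pool 1, at 272 reads. No paired analysis was possible because the 3 groups that share pool numbers are kinds of library with different features, and no test compared them.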

Other observations

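The 12 newly predicted miRNAs, the part of the miRNA tables that the comparisons did not use, had 669, 417 and 286 reads in pools 1, 2 and 3. The common biological coefficient of variation of 84 known miRNAs over the pools was 0.346 with edgeR, and the values of miR-9a (0.275) and miR-306 (0.276) ranked 4 and 5 of 84 from the lowest, with miR-79 at 0.323 (rank 31) and miR-9c at 0.357 (rank 59). By the SD of the log2 share the ranks were 18 for miR-9a, 22 for miR-306, 3 for miR-79 and 49 for miR-9c. The low edgeR ranks of miR-9a and miR-306 are thus particular to that measure.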
